A study of Mus musculus with 12 samples.

Results

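A set of 8 genes used as markers of the epicardium and the mesothelium was followed through 12 RNA libraries of mouse hearts: Upk3b, Upk1b, Msln, Lrrn4, Krt19, Wt1, Tbx18 and Tcf21. They are the rows of the deposited table whose symbol is one of these 8 names, out of 24918 rows, and all 8 were among the 14721 genes with enough signal to be tested. The libraries form 4 groups of 3, which are male cardioGRKO hearts, male floxed hearts, hearts labelled female cardioGRKO and hearts labelled female floxed. All mice were on the C57BL/6 background, 2 months old and untreated, and all carry the glucocorticoid receptor gene flanked by loxP sites on both alleles (GRloxP,loxP). By the titles, the cardioGRKO mice also carry the transgene αMHC-Cre, in which a myosin heavy chain promoter active in cardiomyocytes drives the recombinase Cre, and the floxed mice do not. Cre itself and the loss of the receptor therefore cannot be told apart. Groups were taken from the titles, because the labels' genotype field gives wild-type for each of the 12 libraries. Nothing in the labels says that the libraries of a group come from separate animals, so p-values measure the spread between libraries only, and part or all of it may be technical.

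The epicardium is the mesothelium that covers the heart. It is a thin epithelial layer that expresses uroplakins, mesothelin and simple keratins, and in the embryo it is marked by the transcription factors Wt1, Tbx18 and Tcf21. Embryonic epicardial cells can lose their epithelial character and give rise to fibroblasts and to mural cells of the coronary vessels, and Tcf21 remains in use as a marker of fibroblasts in the adult heart. The deleted receptor is a hormone-activated transcription factor, and αMHC-Cre is meant to remove it from cardiomyocytes and not from the epicardium. In RNA of whole tissue, fewer cells of a type and less RNA per cell cannot be told apart.

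Values are the authors' log2 values after normalization between libraries, 1 per gene and library. Differences are cardioGRKO minus floxed on that log2 scale unless another direction is named. The values are not scaled to gene length, so levels of different genes are not compared, and sequencing depth is unknown. The median SD within a group was 0.0248 to 0.0285 over the genes tested. Nr3c1, the gene of the receptor, had 10.83, 10.85 and 10.88 in male cardioGRKO libraries, against 11.40, 11.42 and 11.42 in male floxed libraries. In the libraries labelled female cardioGRKO it had 10.90, 10.90 and 10.85, against 10.74, 10.71 and 10.78 in those labelled female floxed. The difference was -0.56 (SE 0.0240, adjusted p = 2.45e-11, limma) in males and 0.14 (SE 0.0240, adjusted p = 0.000384) in females. Nr3c1 thus goes against the label in females, and a female direction below is a direction between libraries as labelled. Were the labels of the 2 female groups exchanged, every female sign would turn, and Upk3b, Msln, Lrrn4 and Krt19 would have the same sign in both sexes. Whether they were exchanged was not tested. Libraries 1 and 2 labelled female floxed also stand apart in transcripts of corneal epithelium. Krt12, a keratin of the cornea, had 13.13, 13.98 and 8.35 in labelled female floxed libraries 1, 2 and 3, and 7.16 to 8.49 in the other 9. Differences of the 8 markers given below that use this group are therefore also given without those 2 libraries, which leaves 1 library in the group, assumed to vary like the others.

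In males, 5 of the 8 markers were higher in cardioGRKO hearts and 0 were lower: Upk3b, Msln, Lrrn4, Krt19 and Tcf21. Among all genes tested, 12.8% were called higher and 14.6% lower in males. In the libraries labelled female, 5 were lower in cardioGRKO and 0 were higher: Upk3b, Upk1b, Msln, Lrrn4 and Krt19. There, 15.2% of all genes tested were called higher and 14% lower. The median difference of the 8 was 0.20 in males and -0.22 in females, beside -0.0021 and -4e-04 over all genes tested. Upk3b, Msln, Lrrn4 and Krt19 were called in opposite directions in the 2 sexes as labelled, while Wt1 and Tbx18 passed the test in neither. Groups did not overlap for 6 markers in males, all higher in cardioGRKO, and for 5 in females, all lower, where 41.4% and 40.7% of all genes tested did not overlap in either direction.

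**Figure D1:**
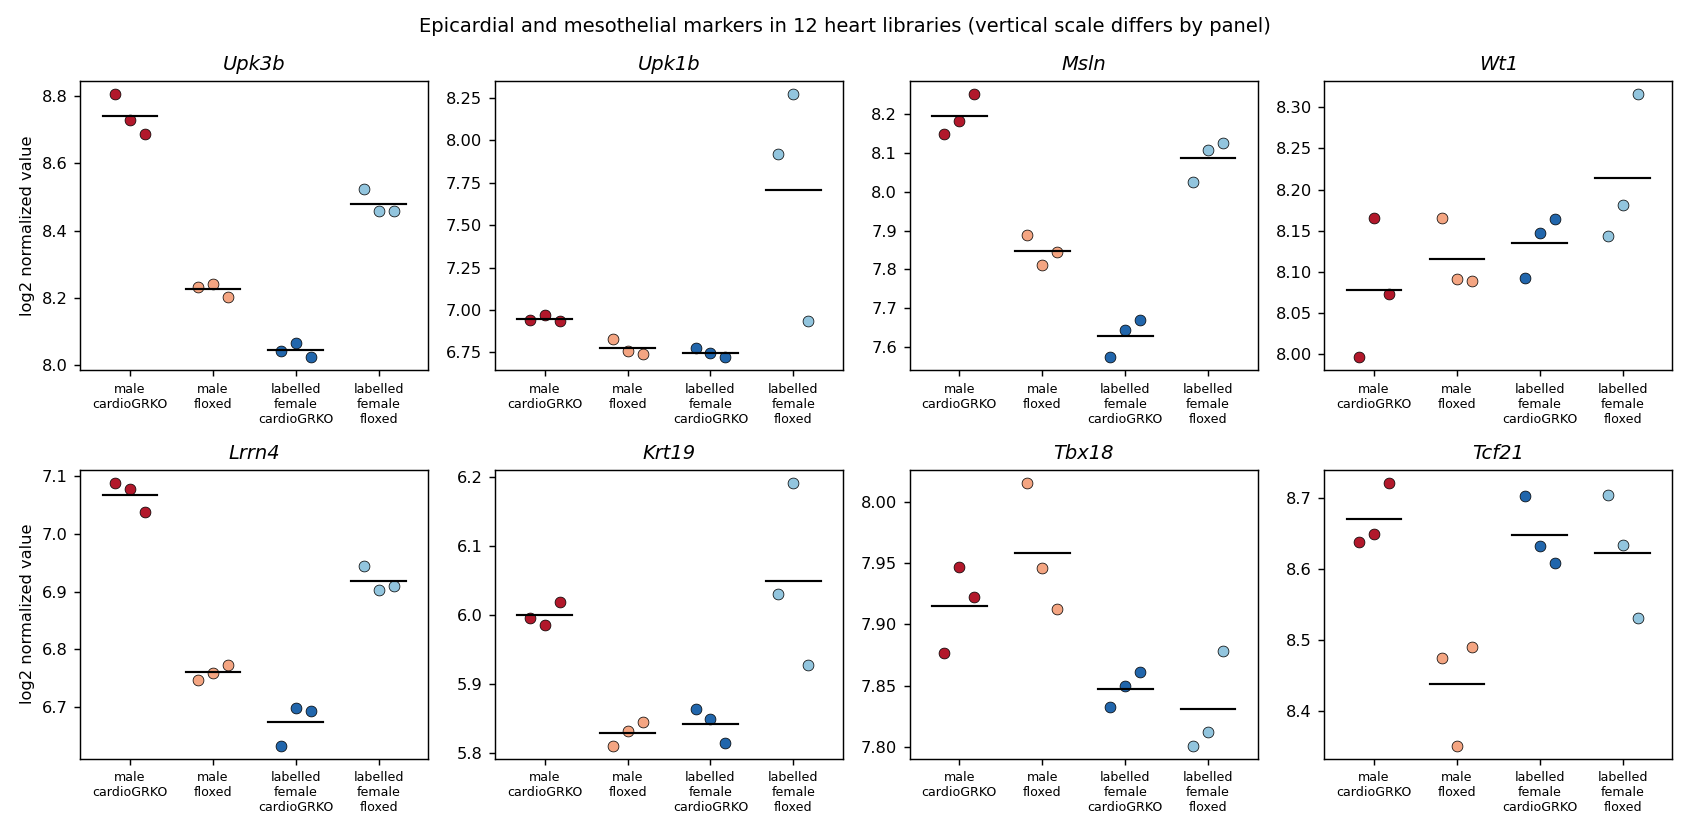
Log2 normalized value of each of the 8 markers (vertical axes, a different scale in each panel) in the 3 libraries of each of 4 groups (horizontal axis). Points are libraries and bars are group means. Upk3b, Msln and Lrrn4 are high in male cardioGRKO (means 8.74, 8.19 and 7.07) and in labelled female floxed (8.48, 8.09 and 6.92), while Upk1b is high in 2 labelled female floxed libraries alone (7.92 and 8.27).

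Upk3b, Msln, Lrrn4 and Upk1b are proteins of the mesothelial cell surface or membrane. Upk3b, a uroplakin and one of the genes most used to mark mesothelium, had values of 8.81, 8.73 and 8.69 in male cardioGRKO libraries, against 8.23, 8.24 and 8.20 in male floxed libraries. In the libraries labelled female it had 8.04, 8.07 and 8.03 in cardioGRKO, against 8.52, 8.46 and 8.46 in floxed. The 4 groups did not overlap, and their order from high to low was male cardioGRKO, labelled female floxed, male floxed and labelled female cardioGRKO. The mean was 8.74 ± 0.060 in male cardioGRKO and 8.23 ± 0.0195 in male floxed hearts (SD, n = 3 libraries each). That is a difference of 0.52 (SE 0.0316), or 1.43-fold, with an adjusted p of 2.27e-09 in limma. In females the means were 8.04 ± 0.0206 in cardioGRKO and 8.48 ± 0.0372 in floxed (SD, n = 3 libraries each), so that the labelled cardioGRKO level was 73.9% of the floxed level. The female difference was -0.44 (SE 0.0316, adjusted p = 3.24e-08, limma), and it was -0.42 without the 2 corneal libraries (adjusted p = 1.85e-08). Of the 14721 genes tested, Upk3b had the 63rd largest positive difference in males and the 104th most negative in females.

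Msln encodes mesothelin, a glycoprotein anchored at the surface of mesothelial cells. Its values were 8.15, 8.18 and 8.25 in male cardioGRKO libraries, against 7.89, 7.81 and 7.85 in male floxed libraries. The libraries labelled female gave 7.57, 7.64 and 7.67 in cardioGRKO, against 8.02, 8.11 and 8.13 in floxed. The order of the groups was that of Upk3b, again with no overlap. In males the difference was 0.35 (SE 0.0363), or 1.27-fold, with an adjusted p of 1.44e-06 in limma. In females it was -0.46 (SE 0.0363, adjusted p = 9.54e-08), a labelled cardioGRKO level at 72.8% of the floxed one, and -0.50 without the corneal libraries (adjusted p = 7.16e-10).

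Lrrn4, a membrane protein with leucine-rich repeats, had 7.09, 7.08 and 7.04 in male cardioGRKO libraries, against 6.75, 6.76 and 6.77 in male floxed libraries. Values of 6.63, 6.70 and 6.69 were found in the libraries labelled female cardioGRKO, against 6.94, 6.90 and 6.91 in those labelled female floxed. Its groups stood in the same order as those of Upk3b and Msln and did not overlap. The difference was 0.31 (SE 0.0252) in males, or 1.24-fold (adjusted p = 8.49e-08, limma). It was -0.24 (SE 0.0252) in females, a labelled cardioGRKO level at 84.5% of the floxed one (adjusted p = 1.93e-06), and -0.23 without the corneal libraries (adjusted p = 2.5e-05). In RefSeq, Lrrn4 overlaps the protein-coding gene Crls1, and how the authors' counting treated strand is not given in the sources used here.

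Promoters of Upk3b and Lrrn4 are shown because these markers differed in opposite directions in the 2 sexes as labelled. Each runs from 250 bases before the RefSeq start to 50 after it, 5′ to 3′ on the gene's strand, in build GRCm38.p6, at chr5:136038246-136038545 (plus strand) for Upk3b and chr2:132880813-132881112 (minus strand) for Lrrn4. The promoter table held 4 of the 8 genes, and Msln, Upk1b, Wt1 and Krt19 are not shown. Capitals mark matches to the motifs searched.
Upk3b: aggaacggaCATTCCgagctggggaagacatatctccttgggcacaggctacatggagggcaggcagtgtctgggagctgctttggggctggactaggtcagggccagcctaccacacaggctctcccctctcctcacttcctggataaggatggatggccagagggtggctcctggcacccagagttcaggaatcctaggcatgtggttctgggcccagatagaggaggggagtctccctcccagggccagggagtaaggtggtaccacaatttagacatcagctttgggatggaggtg
Lrrn4: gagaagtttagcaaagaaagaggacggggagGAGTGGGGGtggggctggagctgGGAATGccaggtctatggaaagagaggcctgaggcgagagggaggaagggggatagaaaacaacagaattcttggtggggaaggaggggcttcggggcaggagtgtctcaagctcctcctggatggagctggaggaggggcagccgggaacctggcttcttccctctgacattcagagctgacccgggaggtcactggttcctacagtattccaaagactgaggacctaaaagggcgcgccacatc
The motifs were searched on both strands, and the matches do not overlap each other. The TEAD motif GGAATG was found in both, 241 bases before the start in Upk3b, on the strand opposite to the gene, and 196 bases before the start in Lrrn4. It occurs in 14.7% of the 32851 promoters of this length in the table. The WT1 motif GNGTGGGNG was found in Lrrn4, 219 bases before the start, and occurs in 14.3% of promoters. The glucocorticoid receptor motif AGAACA, present in 19% of promoters, was not in the windows of Upk3b, Lrrn4, Tbx18 or Tcf21. Neither was the full receptor element, GNACA and TGTNC 3 bases apart, present in 0.475%. The T-box motif AGGTGTNA, in 3.03% of promoters, and the E-box CAGCTG bound by TCF21, in 16.3%, also had no match in these 4 windows. A match is a description of the letters and not a site of binding.

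Upk1b is a tetraspanin of the uroplakin group, found in mesothelium and in urothelium and other lining epithelia. It had 6.94, 6.97 and 6.94 in male cardioGRKO libraries, against 6.83, 6.76 and 6.74 in male floxed libraries. Values were 6.78, 6.74 and 6.72 in the libraries labelled female cardioGRKO, against 7.92, 8.27 and 6.93 in those labelled female floxed. The 2 high values are those of the corneal libraries, and the third floxed library lies just below the male cardioGRKO ones. The female difference of -0.96 (SE 0.202, adjusted p = 0.00195, limma) became -0.19 without the corneal libraries and still passed the test (adjusted p = 0.000751). The male difference was 0.17 (SE 0.202, 95% interval -0.26 to 0.60) and did not pass the test (adjusted p = 0.593), although the male groups did not overlap. Since all groups share 1 estimate of the spread, the corneal libraries widen that of the male comparison too. The same 0.17 passed in a fit of the 6 male libraries alone (adjusted p = 1.47e-05), without both corneal libraries (adjusted p = 7.11e-06) and without labelled female floxed library 3 (adjusted p = 0.0104). Without both corneal libraries, 6 of the 8 markers were higher in males, the 5 above and Upk1b, in a fit that called 4453 of all genes in males.

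Krt19, a keratin of simple epithelia, had 6.00, 5.99 and 6.02 in male cardioGRKO libraries, against 5.81, 5.83 and 5.84 in male floxed libraries. The libraries labelled female had 5.86, 5.85 and 5.82 in cardioGRKO, against 6.03, 6.19 and 5.93 in floxed. Male cardioGRKO and labelled female floxed overlapped at the high end, and the other two groups overlapped at the low end. The male difference was 0.17 (SE 0.0432), or 1.13-fold, with an adjusted p of 0.00672 in limma, which became 0.0505 under robust moderation. The female difference of -0.21 (SE 0.0432, adjusted p = 0.00188) became -0.08 without the corneal libraries, where it no longer passed (adjusted p = 0.0523).

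The other 3 markers are transcription factors, of which Tcf21 was called in males and 0 were called in females. Wt1, a zinc finger factor of the mesothelium, had 7.997, 8.16 and 8.07 in male cardioGRKO libraries, against 8.17, 8.09 and 8.09 in male floxed libraries. It had 8.09, 8.15 and 8.16 in the libraries labelled female cardioGRKO, against 8.14, 8.18 and 8.32 in those labelled female floxed. All 4 groups lay close together, and each overlapped its neighbours. The difference was -0.04 in males (95% interval -0.13 to 0.06, adjusted p = 0.613, limma) and -0.08 in females (95% interval -0.18 to 0.02, adjusted p = 0.212). Without the corneal libraries the female difference was -0.18. That value rests on labelled female floxed library 3 alone, which has the highest Wt1 of the 12.

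Tbx18, a T-box factor of the embryonic epicardium and of mural cells, had 7.88, 7.95 and 7.92 in male cardioGRKO libraries, against 8.02, 7.95 and 7.91 in male floxed libraries. Values in the libraries labelled female were 7.83, 7.85 and 7.86 in cardioGRKO, against 7.80, 7.81 and 7.88 in floxed. Within each sex the genotypes overlapped. The difference was -0.04 in males (SE 0.0318, adjusted p = 0.367, limma) and 0.02 in females (SE 0.0318, adjusted p = 0.742), which became -0.03 without the corneal libraries (adjusted p = 0.712).

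Tcf21, a basic helix-loop-helix factor of epicardial cells and cardiac fibroblasts, had 8.64, 8.65 and 8.72 in male cardioGRKO libraries, against 8.47, 8.35 and 8.49 in male floxed libraries. In the libraries labelled female it had 8.70, 8.63 and 8.61 in cardioGRKO, against 8.70, 8.63 and 8.53 in floxed. The male floxed libraries lay below the other 9, which overlapped among themselves. The male difference was 0.23 (SE 0.0447), or 1.17-fold (adjusted p = 0.000812, limma). In females it was 0.03 (95% interval -0.07 to 0.12, adjusted p = 0.722), and 0.12 without the corneal libraries (adjusted p = 0.109). Tcf21 overlaps a noncoding RNA gene, Gm10824, in RefSeq, so that reads of the pair may not be separated.

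The difference between the sexes was tested as the female effect minus the male effect, and 6 of the 8 markers passed, all lower. Among all genes tested, 17% were called higher and 14.3% lower in it. These differences and the averages below rest on the female labels, which Nr3c1 goes against. Were those labels exchanged, the sex differences of Upk3b, Msln, Lrrn4 and Krt19 would be smaller in size and their averages larger. Upk3b had -0.95 (SE 0.0447, adjusted p = 7.34e-11, limma), Msln -0.80 (adjusted p = 3.62e-09) and Lrrn4 -0.55 (adjusted p = 4.27e-09). Without the corneal libraries these were -0.93 for Upk3b (adjusted p = 2.6e-15), -0.84 for Msln (adjusted p = 8.06e-14) and -0.54 for Lrrn4 (adjusted p = 3.24e-11). For Upk1b it was -1.13 (adjusted p = 0.00596, and 0.0609 under robust moderation) and -0.36 without the corneal libraries (adjusted p = 3.74e-07). Krt19 gave -0.38 (adjusted p = 0.00015), and -0.26 without those libraries (adjusted p = 1.9e-06). Tcf21 had -0.21 (adjusted p = 0.0201), which became -0.11 without the corneal libraries (adjusted p = 0.189). It also missed the threshold without male cardioGRKO library 3, male floxed library 2, labelled female cardioGRKO library 3 or labelled female floxed library 1 (adjusted p 0.0538 to 0.0605). Wt1 had -0.04 (adjusted p = 0.665) and Tbx18 0.06 (adjusted p = 0.344), and without those libraries -0.14 (adjusted p = 0.0875) and 0.01 (adjusted p = 0.909). Averaged over the sexes, 1 marker was higher and 0 were lower, with 12.2% and 12.4% of all genes tested called in those directions. That marker was Tcf21, at 0.13 (adjusted p = 0.0067) and at 0.17 without the corneal libraries (adjusted p = 6.29e-05). Upk3b averaged 0.04 (adjusted p = 0.216), and 0.05 without them (adjusted p = 0.228). Upk1b averaged -0.39 (adjusted p = 0.0558), and -0.0070 without them (adjusted p = 0.885). Leaving out 1 library at a time moved the Upk1b average between -0.59 and -0.25, and it passed the test without labelled female floxed library 3, which leaves the corneal libraries as the whole group. Wt1 passed without the corneal libraries, at -0.11 (adjusted p = 0.0101).

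**Figure D2:**
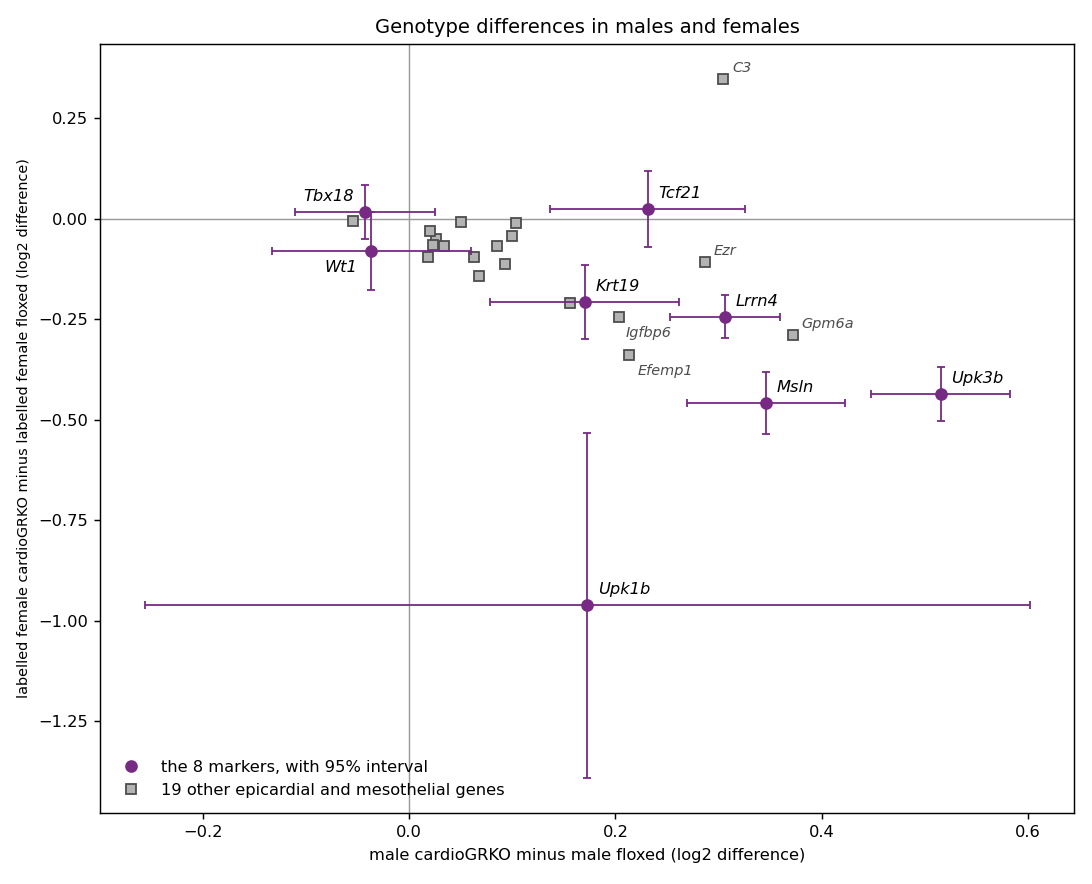
Log2 difference between cardioGRKO and floxed in males (horizontal axis) against that in the libraries labelled female (vertical axis), for the 8 markers with 95% intervals and for 19 other epicardial and mesothelial genes. Upk3b (0.52 and -0.44), Msln (0.35 and -0.46) and Lrrn4 (0.31 and -0.24) lie at the lower right, Wt1 and Tbx18 lie near the crossing of the 0 lines, and C3 lies at the upper right.

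Sex was also compared within each genotype, as female minus male. In the labelled cardioGRKO libraries 4 markers were lower in females and 0 were higher, where 12.4% of all genes tested were called lower and 11.9% higher. These were Upk3b at -0.70 (adjusted p = 7.8e-11, limma), Msln at -0.57 (adjusted p = 6.49e-09), Lrrn4 at -0.39 (adjusted p = 6.82e-09) and Krt19 at -0.16 (adjusted p = 0.0142). Krt19 missed the threshold there without male cardioGRKO library 3 (adjusted p = 0.0533) or labelled female cardioGRKO library 3 (adjusted p = 0.0574). Upk1b, at -0.20, was not called with all libraries, and passed without labelled female floxed library 3 (adjusted p = 0.00423). In the labelled floxed libraries 6 markers were higher in females and 1 was lower, where 21.5% and 22.7% of all genes tested were called. Upk1b was higher by 0.93, Upk3b by 0.26, Msln by 0.24, Krt19 by 0.22, Tcf21 by 0.18 and Lrrn4 by 0.16, with adjusted p-values between 5.92e-06 and 0.00323 in limma. Tbx18 was lower, at -0.13 (adjusted p = 0.00392). Without the corneal libraries Upk1b was higher by 0.16 (adjusted p = 0.00188), Krt19 by 0.0977 (adjusted p = 0.0137), Upk3b by 0.23 (adjusted p = 0.00013), Msln by 0.28 (adjusted p = 1.8e-05) and Lrrn4 by 0.15 (adjusted p = 0.00286). Tcf21, at 0.09, and Tbx18, at -0.08, no longer passed (adjusted p 0.17 and 0.187), and Wt1 did, at 0.20 (adjusted p = 0.00232). Wt1 also passed without labelled female floxed library 1 alone (0.13, adjusted p = 0.0424). These contrasts share their libraries with the genotype contrasts above and are the same values seen from the other side.

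Other genes of the epicardium and mesothelium, taken from a list of 23, gave 19 that passed the filter on low values. Among all genes tested, 12.8% were called higher and 14.6% lower in males, and 15.2% and 14% in females. Of the 19, 10 were higher and 0 lower in male cardioGRKO hearts, with a median difference of 0.09. In the libraries labelled female, 1 was higher and 12 were lower in cardioGRKO, with a median of -0.07. Without the corneal libraries the female median was -0.047. Gpm6a, a membrane glycoprotein, had 8.23, 8.27 and 8.24 in male cardioGRKO libraries, against 7.90, 7.86 and 7.85 in male floxed libraries. It had 7.98, 7.88 and 7.95 in the libraries labelled female cardioGRKO, against 8.21, 8.25 and 8.22 in those labelled female floxed. Within each sex the genotypes did not overlap, and the differences were 0.37 in males (adjusted p = 4.93e-08, limma) and -0.29 in females (adjusted p = 1.49e-06). Igfbp6, which binds insulin-like growth factors, differed by 0.20 in males (adjusted p = 7.15e-05) and by -0.24 in females (adjusted p = 1.55e-05). Efemp1, an extracellular matrix protein, differed by 0.21 (adjusted p = 0.00563) and -0.34 (adjusted p = 0.00015). Its labelled female floxed values were 8.17 and 8.30 in the corneal libraries and 7.98 in library 3, against 7.79 to 7.84 in labelled female cardioGRKO. Differences of single genes of this list are not given without the corneal libraries. Ezr encodes ezrin, which ties the membrane to actin, and was higher by 0.29 in males (adjusted p = 1.15e-06). In the libraries labelled female Ezr averaged 11.35 in cardioGRKO and 11.46 in floxed, with no overlap. The 1 gene called higher in females was C3, complement component 3, which was higher in cardioGRKO in both sexes, by 0.30 (adjusted p = 1.94e-07) and 0.35 (adjusted p = 6.97e-08). Of the keratins of the list, which are Krt7, Krt8 and Krt18, all were tested. Krt7 and Krt18 were higher in males (0.16 and 0.09, adjusted p 0.00696 and 0.0021) and lower in females (-0.21 and -0.07, adjusted p 0.000938 and 0.0125). The differences of Krt8 are not given here, so these values do not describe the keratins as a set. Calb2 was listed at 0 in all 12 libraries. The other uroplakins gave 1 gene above the filter, Upk1a, at 0.03 in males (adjusted p = 0.402) and -0.02 in females (adjusted p = 0.657), while Upk2 and Upk3a were below it.

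Genes of epicardial signalling and of the epithelial-mesenchymal transition were called in both directions. Of 33 tested, 10 were higher and 7 lower in male cardioGRKO hearts (median 0.01), and 6 were higher and 6 lower in the libraries labelled female cardioGRKO (median -0.04). Among all genes tested, 12.8% were called higher and 14.6% lower in males, and 15.2% and 14% in females. The female counts of this list are near those shares. Igf2, a growth factor made by the embryonic epicardium, had 11.77, 11.82 and 11.76 in male cardioGRKO libraries, against 11.08, 11.07 and 11.09 in male floxed libraries. It had 11.79, 11.76 and 11.78 in the libraries labelled female cardioGRKO, against 12.37, 12.34 and 12.35 in those labelled female floxed. The differences were 0.70 in males (adjusted p = 2.29e-13, limma) and -0.58 in females (adjusted p = 5.36e-12), with no overlap of genotypes within either sex. Fstl1, a secreted glycoprotein, followed the same signs, at 0.20 (adjusted p = 6.94e-07) and -0.19 (adjusted p = 1.88e-06). Cxcl12, a chemokine, had the opposite ones, at -0.26 (adjusted p = 1.85e-09) and 0.22 (adjusted p = 2.25e-08). Slit3, a guidance ligand, was higher in males, by 0.41 (adjusted p = 3.99e-09). It averaged 8.60 in labelled female cardioGRKO and 8.65 in labelled female floxed libraries. Rxra, a retinoid receptor, was higher in females, by 0.17 (adjusted p = 2.99e-05). In males Rxra averaged 11.03 in cardioGRKO and 11.14 in floxed libraries, with no overlap.

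Markers of other cell types in the heart also differed between the groups. The list counts from here on stand beside 12.8% higher and 14.6% lower of all genes tested in males, and 15.2% and 14% in females. Of 14 atrial markers, 12 were higher and 1 was lower in male cardioGRKO hearts (median 1.21), and 0 were higher and 13 lower in the libraries labelled female cardioGRKO (median -0.59). Nppa, the atrial natriuretic peptide, differed by 2.84 in males (adjusted p = 6.23e-23, limma) and by -1.06 in females (adjusted p = 1.41e-16). Myl4, the atrial light chain, differed by 1.76 (adjusted p = 5.83e-20) and -1.17 (adjusted p = 8.07e-17). On a linear scale the summed atrial level was 148000 to 149000 in male cardioGRKO and 36700 to 37100 in male floxed libraries. It was 58500 to 59600 in labelled female cardioGRKO and 117000 to 120000 in labelled female floxed libraries. The male cardioGRKO and labelled female floxed groups are thus the 2 highest for Upk3b, Msln and Lrrn4 and for the atrial sum. At the low end the atrial sum was lowest in male floxed and these 3 markers were lowest in labelled female cardioGRKO. Single atrial genes varied at this end. Nppa, Bmp10 and Dkk3 averaged 13.39, 8.06 and 10.48 in male floxed and 15.04, 9.77 and 10.89 in labelled female cardioGRKO. Myl4 and Myl7 averaged 12.95 and 12.79 in male floxed and 12.82 and 12.40 in labelled female cardioGRKO, so they were lowest where the 3 markers were. No atrial marker was at 0. The part of atrial tissue in the marker differences was not tested.

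**Figure D3:**
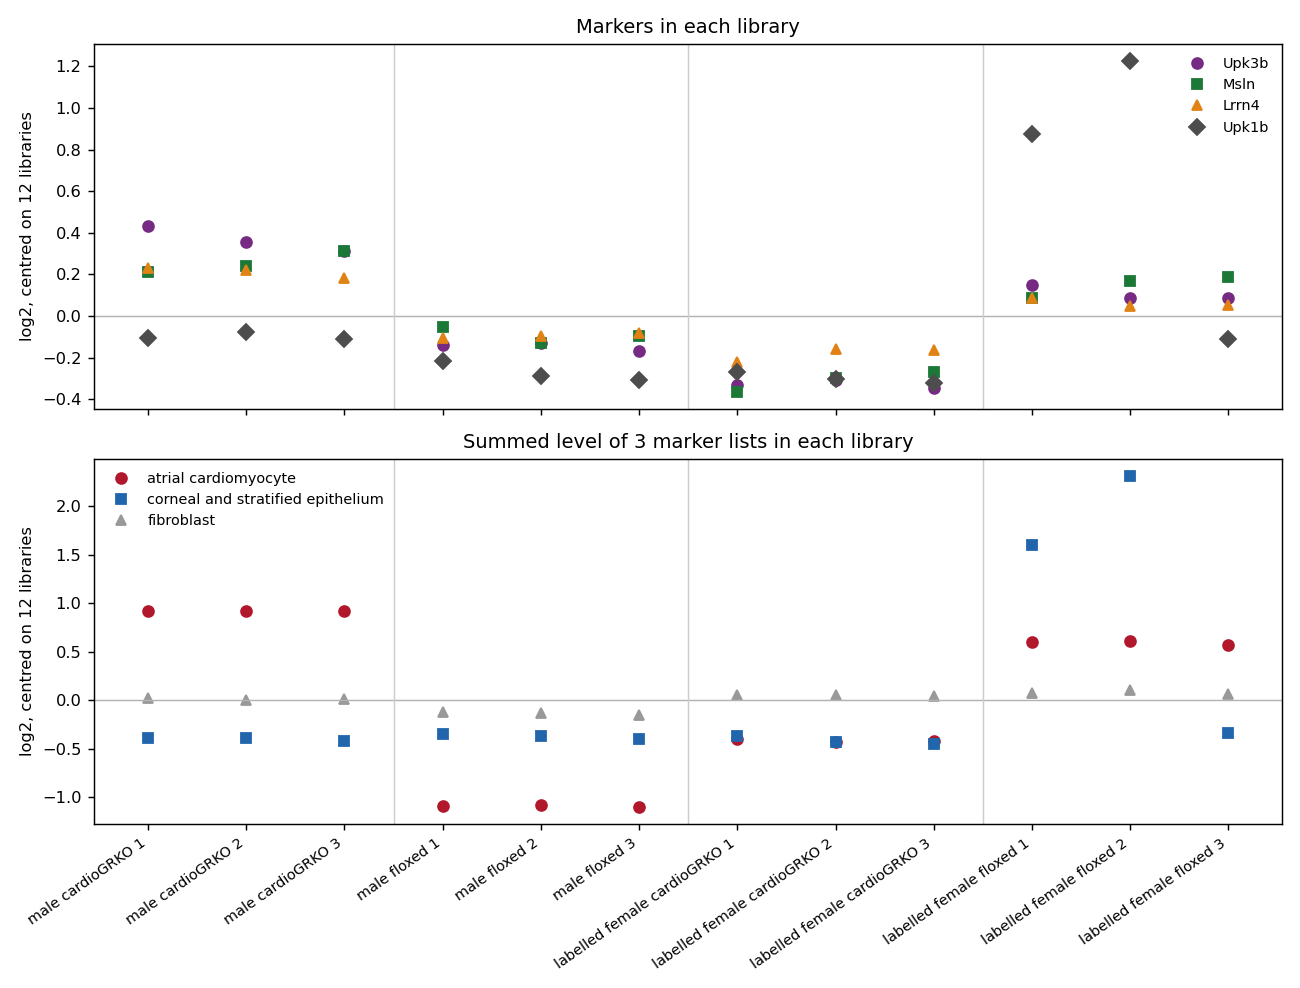
Upper panel, log2 values of Upk3b, Msln, Lrrn4 and Upk1b in each of the 12 libraries, centred on each gene's mean; lower panel, log2 summed levels of atrial, corneal and fibroblast markers, centred in the same way. Upk3b, Msln, Lrrn4 and the atrial sum are high in male cardioGRKO and labelled female floxed libraries, while Upk1b and the corneal sum are high in labelled female floxed libraries 1 and 2.

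Among 13 fibroblast markers, 7 were higher and 0 lower in male cardioGRKO hearts (median 0.11), and 3 were higher and 6 lower in the libraries labelled female cardioGRKO (median -0.07). Their summed level was 138000 to 140000 in male cardioGRKO against 124000 to 127000 in male floxed libraries, and 142000 to 143000 in labelled female cardioGRKO against 144000 to 148000 in labelled female floxed. Lum, a matrix proteoglycan, differed by 0.21 in males (adjusted p = 5.88e-06, limma) and by -0.28 in females (adjusted p = 3.99e-07). Pi16, among the 3 called higher in females, differed there by 0.15 (adjusted p = 0.00015, limma). In males Pi16 averaged 11.56 in cardioGRKO and 11.57 in floxed libraries. The low fibroblast sum of male floxed libraries stands beside their low Tcf21, and its part in the Tcf21 difference was not tested. Of single fibroblast genes, Gsn, Dcn, Col3a1, Lum and Col1a2 had their lowest mean in male floxed libraries, while Postn and Pi16 did not. The corneal list gave 0 of 23 genes called in males and 23 lower in females. Its sum was 6300 to 6670 in labelled female cardioGRKO and 6830 to 43000 in labelled female floxed libraries. The median difference of the list in females was -0.74, and -0.014 without the 2 corneal libraries. Of 9 lung epithelium markers, 3 passed the filter, and 0 were called in males and 1 was lower in females, while Sftpa1, a surfactant protein, was at 0 in all libraries. The gene called was Cyp2f2, which had 4.34 and 4.66 in the 2 corneal libraries. Labelled female floxed library 3 had 4.09, and the labelled female cardioGRKO libraries had 4.10 to 4.11.

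Endothelial and mural markers were mostly lower in male cardioGRKO hearts. Of 12 endothelial markers, 1 was higher and 10 lower in male cardioGRKO hearts (median -0.15), and 6 were higher and 2 lower in the libraries labelled female cardioGRKO (median 0.06). Of 13 smooth muscle and pericyte markers, 1 was higher and 10 lower in males (median -0.17), and 3 were higher and 5 lower in females (median -0.05). The 12 general cardiomyocyte markers gave 1 higher and 8 lower in males, and 4 higher and 1 lower in females. Adipocyte markers gave 2 higher and 4 lower of 9 in males, and 8 higher and 0 lower in females. Of 8 lymphocyte markers, 5 were higher in males and 4 in females, and 0 were lower in either.

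**Figure D4:**
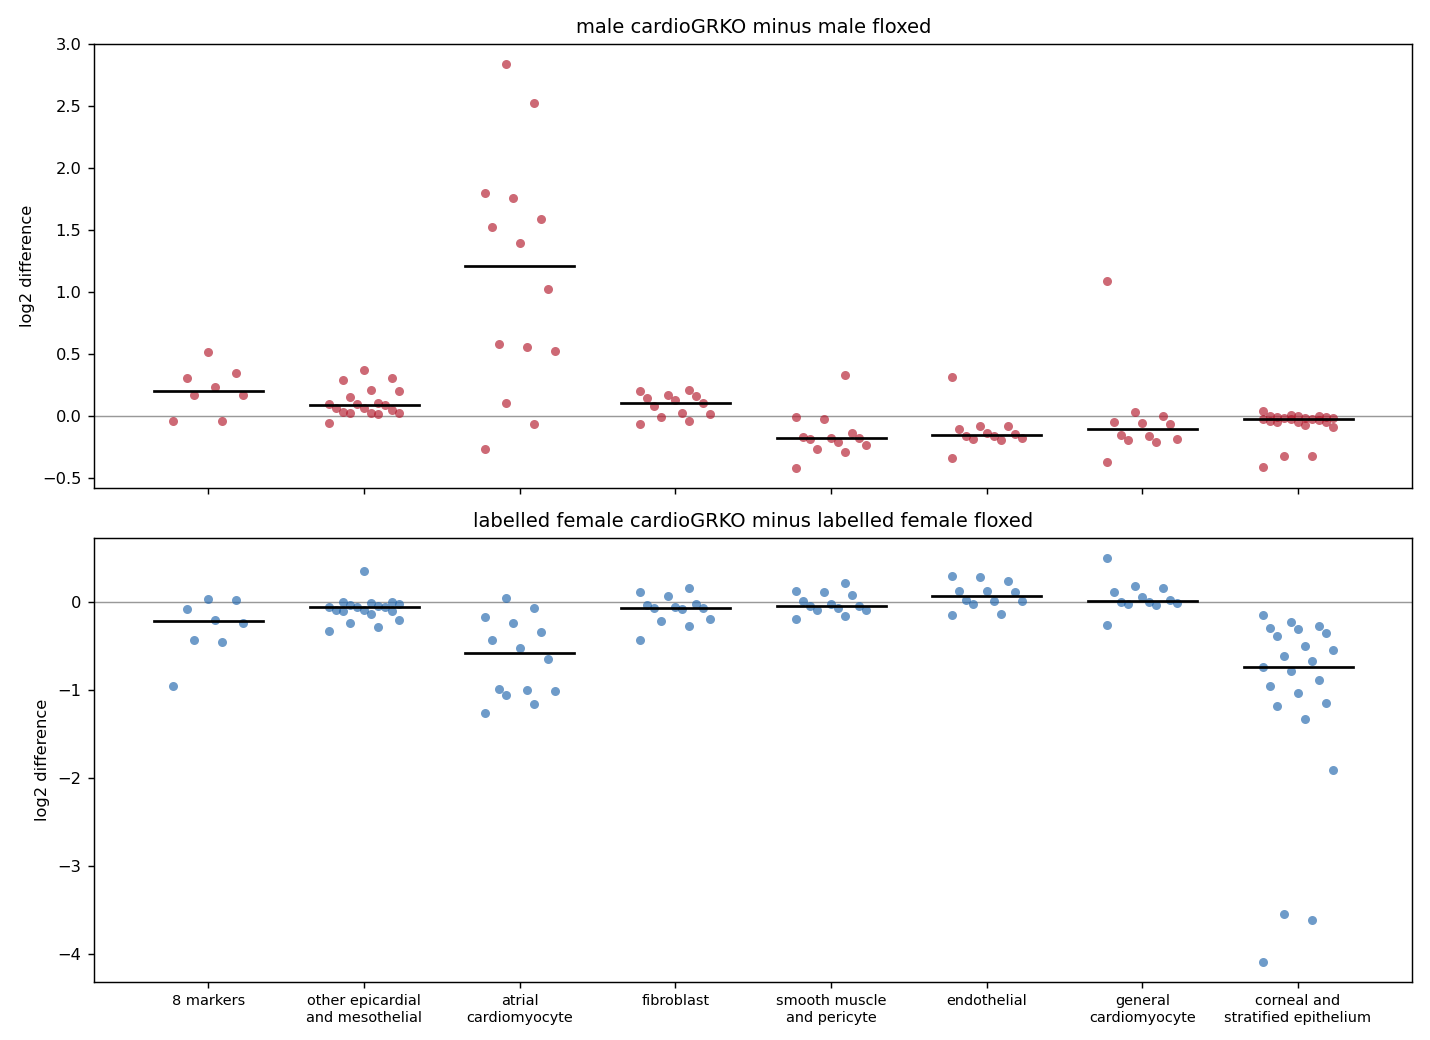
Log2 differences between cardioGRKO and floxed for each tested gene of 8 lists, in males (upper panel) and in the libraries labelled female (lower panel). Points are genes and bars are medians, which for the 8 markers are 0.20 and -0.22, for the other epicardial and mesothelial genes 0.09 and -0.07, and for atrial cardiomyocytes 1.21 and -0.59.

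Likeness of pattern was described for the 3 markers whose group means ranged over at least 0.5, as the root mean square difference between the centred log2 values of 2 genes over the 12 libraries. Nearest to Upk3b were Aldh1b1 (0.0705), Ifltd1 (0.0739) and Gm12522 (0.0815), where the median over all genes was 0.27. Nearest to Msln were Tbx5 (0.0759), Cacna1d (0.0899) and Camk1d (0.0902), with a median of 0.228. Those of Upk1b were Ppl (0.0915), Elf3 (0.0985) and AI661453 (0.0999), with a median of 0.485, and Ppl and Elf3 are on the corneal list. Tbx5, a T-box factor, averaged 10.60 ± 0.0193 in male cardioGRKO and 10.16 ± 0.0154 in male floxed libraries, and 10.11 ± 0.0142 in labelled female cardioGRKO and 10.45 ± 0.0211 in labelled female floxed libraries (SD, n = 3 each). Its groups stood in the same order as those of Msln, which largely follows from its being picked as the gene nearest to Msln.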

How the data were processed

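Total RNA of mouse hearts was isolated by Trizol followed by RNeasy columns and sequenced as TruSeq libraries on a NextSeq500, per the labels' protocols. Per the submitters' processing notes, the authors used Trim Galore, TopHat2, HTSeq and DESeq2 with build mm9. The deposited table holds log2 normalized values. They reach down to -2.20, and 4895 genes are at 0 in all 12 libraries, so they are taken to be shrunken log2 values, which understate changes of low genes. Counts and depth were not recovered, and precision is the spread between libraries. All value columns were used, and no 2 libraries were identical.

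Genes that reached log2 of 10 in 3 or more libraries were tested, 14721 in all. A model with 1 mean per group (8 residual degrees of freedom) was fitted to all 12 libraries with limma 3.58.1 in R 4.3.3, with an intensity trend. Adjusted p-values are two-sided, Benjamini-Hochberg adjusted over all genes tested, and called under 0.05. Of the other lists, up to 4 called genes with the smallest p are named per sex. Krt7, Krt18 and Calb2 were added after their values were seen. The members and lists were chosen with earlier results of these data known. On simulated data the model recovered genes of known change. Promoters are RefSeq's, in build GRCm38.p6. Alternatives covered filters, scaling, moderation, weights, a replicate block, fits within a sex and left-out libraries. Replicate numbers were not used to pair the samples in the main fit. Correlations of deviations from the group means were -0.110 to 0.148 for same-numbered libraries of a sex. For differently numbered libraries they were -0.222 to 0.240. With 3 libraries per group these values cannot show whether samples were paired.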

Additional observations from a re-analysis of the deposited data

Results flagged for a closer look

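For 6 of the 8 markers the cardioGRKO effect differed between the sexes by the test of the difference itself in limma, female effect minus male effect on the log2 scale, and all 6 were lower. Among all genes tested, 17% were called higher and 14.3% lower. The values were -0.95 for Upk3b, -1.13 for Upk1b, -0.80 for Msln, -0.55 for Lrrn4, -0.38 for Krt19 and -0.21 for Tcf21. Without the 2 corneal libraries Upk1b was -0.36, and its call was lost under robust moderation (adjusted p = 0.0609). Tcf21 was -0.11 without them (adjusted p = 0.189) and missed the threshold in 4 of the fits that left out 1 library. Each is the difference between 2 contrasts of 3 libraries against 3, and in females Nr3c1 goes against the labels, whose exchange would turn every female sign. The sex differences of Upk3b, Msln, Lrrn4 and Krt19 would then be smaller in size.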

How the results depend on the processing

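Of 1452 values of the markers and of the counts over markers and over all genes under alternatives, 1401 kept their direction, their side of the threshold or their size. Without both corneal libraries 2734 genes were called in females, Krt19 averaged over the sexes became 0.043, Tbx18 in females became -0.031, and 0 markers were lower in labelled female floxed than in male floxed hearts. At an adjusted p under 0.01, 2656 genes were called in females, 2239 in the average of the sexes and 2152 between the sexes in cardioGRKO. The average over the sexes had 1 lower marker with a filter at log2 of 50, median centring, library weights or the replicate block (Upk1b) and without both corneal libraries (Wt1). Leaving out each library in turn gave 0 to 1. With library weights Tcf21 in females was -0.0093. Leaving out 1 library moved Wt1 in males over -0.080 to 0.0037 and its sex difference over -0.083 to 0.0088, and Tcf21 in females over -0.020 to 0.066 and between the sexes in cardioGRKO over -0.049 to 0.0042. It moved the averages of Krt19 over -0.0485 to 0.0174 and of Tbx18 over -0.024 to 0.0015. None of these single-gene values was past the threshold with all libraries. Krt19 between the sexes in cardioGRKO missed it under robust moderation (adjusted p = 0.0735).

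With replicate number as a block within sex, 3752 genes were called in males, 3988 in females, 4428 in the difference and 3407 in the average, and Upk1b in the average was the marker whose call changed (-0.39, adjusted p = 0.027). Blocks are nested in sex, so comparisons between the sexes could not be fitted with it. The causes of these shifts were not tested. Depth is unknown, and 3 libraries per group limit precision.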
